A study of Rattus norvegicus with 12 samples.

Results

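The Slc30 genes encode zinc transporters (ZnT proteins), most of which move zinc out of the cytoplasm, across the plasma membrane or into the Golgi, secretory granules and other vesicles. Members were the array probe sets whose only annotated gene is one of the 9 genes Slc30a1 to Slc30a9. This gave 12 probe sets of 8 genes among the 31099 probe sets of the array. Slc30a8, which encodes the transporter of insulin granules, had no probe set under its own symbol in the annotation used and was not analysed here. The values come from 12 Affymetrix Rat 230 2.0 arrays, 6 for each of 2 lines of the rat insulin-secreting tumour cell CRI-G1. CRI-G1-RR (rotenone-resistant) cells are the starting line and CRI-G1-RS (rotenone-sensitive) cells are a subclone of it that arose in culture. Rotenone blocks complex I of the respiratory chain. Both lines were untreated and grown in high glucose medium with serum, and the 6 samples of each line came from different passages of that line, so each line is 1 clone.

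Most Slc30 proteins exchange zinc for protons, and the members differ mainly in the membrane they sit in. Slc30a1 exports zinc from the cell, Slc30a5, Slc30a6 and Slc30a7 load the early secretory pathway, and Slc30a2, Slc30a3 and Slc30a4 fill vesicles and endosomes. The Slc39 (ZIP) proteins work in the opposite direction and bring zinc into the cytoplasm, where metallothioneins bind it. Beta cells hold much zinc, since insulin is packed in their granules with it.

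Of the 8 genes measured, 3 were higher in CRI-G1-RS cells (Slc30a4, Slc30a7 and Slc30a9), 1 was lower (Slc30a5) and 4 did not pass the test (Slc30a1, Slc30a2, Slc30a3 and Slc30a6). The test was limma with p-values adjusted over all probe sets by the Benjamini-Hochberg method and a threshold of 0.05, and each gene was counted by its probe set of highest mean signal. Over all 14218 genes taken in the same way, 39.2% passed, 21.0% as higher and 18.3% as lower, so the share of Slc30 genes that passed was near that background. The median log2 fold change of the 8 genes was 0.19, beside 0.02 over all genes. The signals of the lines did not overlap for Slc30a5, Slc30a7 and Slc30a9, 3 of 8 genes, where 27.2% of all genes had no overlap. Counted by probe sets, 3 of 12 were higher and 1 lower, where 31.7% of all probe sets passed, and 3 of 12 had no overlap, where 20.3% of all had none. RNA was taken from whole cultures, so fewer cells with a transcript and less transcript per cell cannot be told apart.

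**Figure D1:**
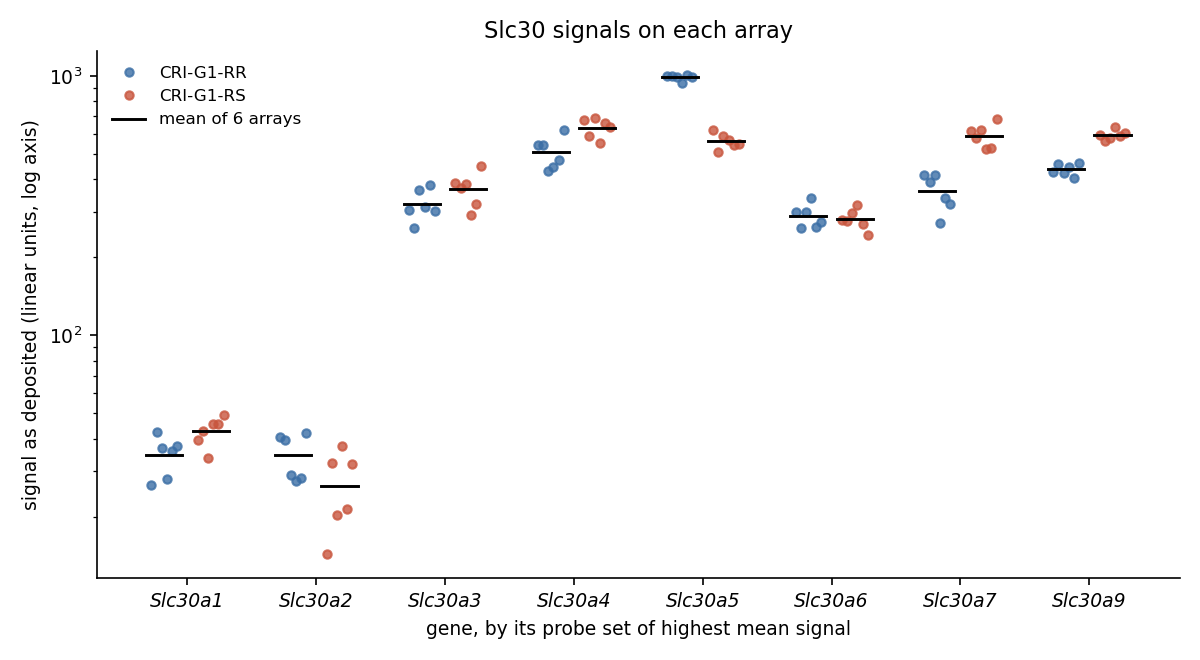
Signal of each Slc30 gene on each array (vertical axis, linear signal as deposited on a log scale) by gene (horizontal axis), with CRI-G1-RR arrays in blue, CRI-G1-RS arrays in red and a line at the mean of 6 arrays. The arrays of the lines separate for Slc30a5, Slc30a7 and Slc30a9 and overlap for the other 5 genes, and signals of different genes cannot be compared with each other because their probes differ.

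The lines were also checked against marker genes. Of 13 islet endocrine markers measured, 11 had a mean signal of at least 50, among them Ins1, Gcg and Chgb, while the somatostatin and pancreatic polypeptide genes Sst and Ppy were below it. Of the 13, 6 passed as higher in RS cells and 0 as lower, beside 21.0% higher and 18.3% lower of all genes. The raised ones included the beta cell transcription factors Nkx6-1 (log2 fold change 1.31, adjusted p = 1.20e-04, limma), Pdx1 (1.09, adjusted p = 5.52e-07) and Neurod1 (0.90, adjusted p = 4.63e-06). The 7 that did not pass included the transcription factor Isl1 (-0.09 by its brightest probe set, adjusted p = 0.694), Gcg (-0.07, adjusted p = 0.327) and Chgb (0.07, adjusted p = 0.66). Of 18 markers of acinar cells, fibroblasts and immune cells, 14 had a mean signal under 50. Their summed signal was 416 to 576 on the RR arrays and 558 to 692 on the RS arrays. The acinar markers alone summed to 132.4 to 184.2 on the RR arrays and 133.5 to 207.0 on the RS arrays. For the fibroblast markers, Pdgfra included, the sums were 230.5 to 299.5 and 306.8 to 390.2. The only one of them to pass was Pdgfra, a growth factor receptor of fibroblasts, with a difference of 0.74 on the log2 scale (adjusted p = 4.85e-04, limma). Its mean signal was 83.4 on the RR arrays and 153.0 on the RS arrays. Pdgfra is also among the 50 nearest genes of Slc30a9 described below. The part of acinar cells, fibroblasts and immune cells, or of the islet marker difference, in the results on the family was not tested. Of all probe sets, 40.6% had a mean signal under 50, and values in that range are called dim here. The array of RS replicate 2 stood somewhat apart, correlating at 0.988 on average with its line against 0.994 to 0.995 for each of the others.

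The promoters of 4 members are shown because their genes passed the test (Slc30a5, Slc30a4 and Slc30a9) or are a textbook target of the zinc sensor Mtf1 (Slc30a1). Slc30a7 passed as well, and no promoter entry for it was at hand. Each runs 5′ to 3′ along the gene, from 250 bases before the RefSeq start to 50 bases after it, on the GRCr8 assembly. Slc30a5 is on the minus strand at chr2:33709849-33710148, Slc30a4 on the minus strand at chr3:130228839-130229138, Slc30a9 on the minus strand at chr14:41224739-41225038 and Slc30a1 on the plus strand at chr13:106021769-106022068. Capitals mark matches on either strand to the metal response element bound by Mtf1 (TGCACNC or TGCGCNC) or to the core of the antioxidant response element bound by Nrf2 (TGACNNNGC).
Slc30a5: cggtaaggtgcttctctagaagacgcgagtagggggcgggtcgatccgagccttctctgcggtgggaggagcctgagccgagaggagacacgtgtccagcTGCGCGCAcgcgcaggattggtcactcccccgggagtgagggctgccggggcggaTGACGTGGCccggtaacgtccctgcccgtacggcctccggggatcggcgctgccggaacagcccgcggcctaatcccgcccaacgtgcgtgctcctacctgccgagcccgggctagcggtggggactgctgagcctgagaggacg
Slc30a4: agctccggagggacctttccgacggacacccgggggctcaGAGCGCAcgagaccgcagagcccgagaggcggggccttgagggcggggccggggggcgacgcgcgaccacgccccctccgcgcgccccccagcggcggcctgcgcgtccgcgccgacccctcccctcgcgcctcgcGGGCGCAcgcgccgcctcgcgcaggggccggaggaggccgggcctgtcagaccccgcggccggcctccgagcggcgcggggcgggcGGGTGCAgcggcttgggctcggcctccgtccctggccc
Slc30a9: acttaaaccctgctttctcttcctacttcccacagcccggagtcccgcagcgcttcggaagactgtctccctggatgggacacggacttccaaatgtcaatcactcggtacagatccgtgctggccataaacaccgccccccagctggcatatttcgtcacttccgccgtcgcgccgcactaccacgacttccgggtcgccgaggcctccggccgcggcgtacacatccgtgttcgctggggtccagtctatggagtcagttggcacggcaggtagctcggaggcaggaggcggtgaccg
Slc30a1: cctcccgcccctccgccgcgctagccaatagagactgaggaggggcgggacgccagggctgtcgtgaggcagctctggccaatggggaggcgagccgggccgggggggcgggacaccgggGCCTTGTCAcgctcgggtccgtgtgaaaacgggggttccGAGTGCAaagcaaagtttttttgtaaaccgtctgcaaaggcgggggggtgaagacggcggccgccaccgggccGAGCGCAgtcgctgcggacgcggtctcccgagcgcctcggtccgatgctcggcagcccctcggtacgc

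The Slc30a5 promoter held 2 metal response element matches that overlap on opposite strands, from bases -150 and -149, and 1 antioxidant core from base -95. The Slc30a4 promoter held 3 metal response element matches and no antioxidant core. Slc30a1 held 2 metal matches, from bases -91 and -18, and 1 antioxidant core from base -130, and Slc30a9 held neither motif. Of all 33469 RefSeq promoters of this length, 24.2% held a metal response element and 12.1% an antioxidant core. Promoters were found for 7 of the members, in 8 entries, of which 4 held a metal response element and 2 an antioxidant core. These are matches of letters and not tested binding sites.

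Slc30a5 was the lowered member. It encodes a Golgi transporter that works in a pair with the Slc30a6 protein and supplies zinc to enzymes as they pass through the secretory pathway. On the RR arrays its signal was 942 at the lowest, 995 at the median and 1012 at the highest, and on the RS arrays 509, 558 and 617. All 6 RS arrays lay below every RR array, and both lines varied little. The mean fell from 989 ± 24.96 (SD, n = 6) to 562 ± 37.9 (SD, n = 6), which is 1.76-fold higher in RR cells. On the log2 scale the change was -0.81 (standard error 0.05, 95% interval -0.93 to -0.69, adjusted p = 1.88e-07, limma).

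Slc30a6, the partner of Slc30a5, did not follow it. This protein does not carry zinc by itself. Its signal was 259, 286 and 337 (lowest, median and highest) on the RR arrays and 245, 278 and 319 on the RS arrays. The arrays of the lines lay over the same range, with means of 288 ± 29.6 (SD, n = 6) and 281 ± 25.4 (SD, n = 6). The log2 fold change was -0.05 (standard error 0.08, adjusted p = 0.72, limma), with a 95% interval of -0.22 to 0.13, which does not reach the change of Slc30a5.

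Slc30a7, the other zinc loader of the Golgi, which pairs with itself, rose in RS cells. Its signal was 272, 365 and 416 (lowest, median and highest) on the RR arrays and 522, 595 and 680 on the RS arrays. Every RS array lay above every RR array. The mean went from 359 ± 58.1 (SD, n = 6) to 589 ± 60.8 (SD, n = 6), a ratio of 1.64. This is a log2 fold change of 0.68 (standard error 0.11, 95% interval 0.45 to 0.91, adjusted p = 2.24e-04, limma). Within the RR line the arrays numbered 1 to 3 had signals of 392 to 416 and those numbered 4 to 6 had 272 to 338, so the RR arrays were themselves spread in 2 ranges. With only the RR arrays 4 to 6 the log2 fold change was 0.87 and with only the RR arrays 1 to 3 it was 0.50, past the threshold both times. For Slc30a5, Slc30a7 and the main probe set of Slc30a9 the exact permutation test of 6 arrays against 6 gave p = 0.00216 (two-sided, unadjusted), the smallest it can give.

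**Figure D2:**
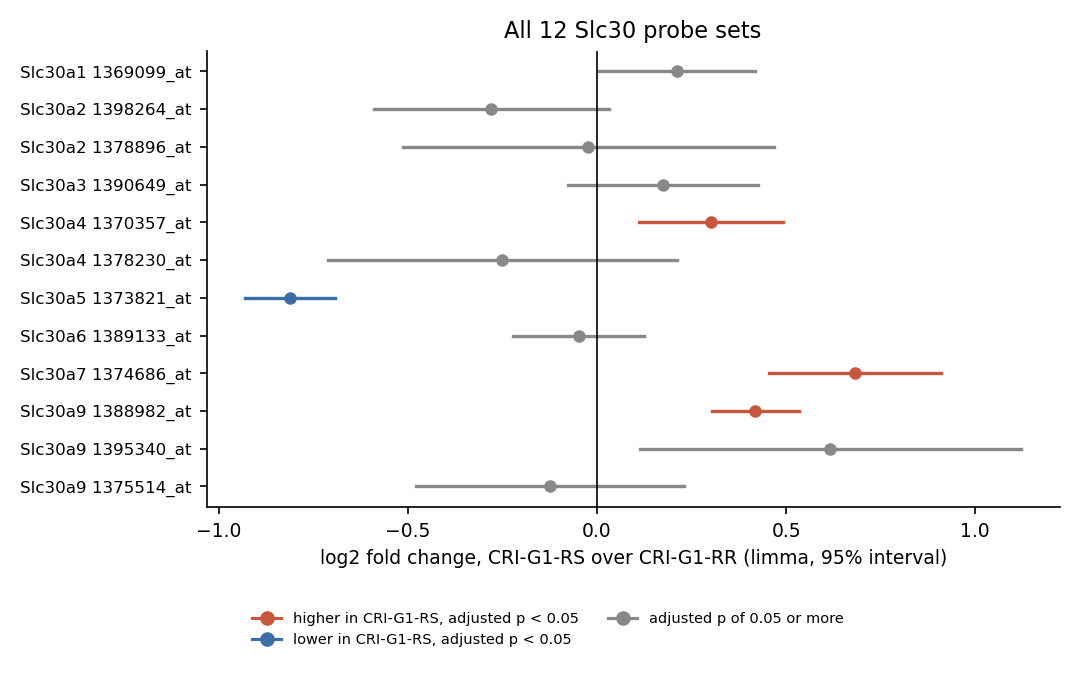
Log2 fold change of CRI-G1-RS over CRI-G1-RR cells for each of the 12 Slc30 probe sets (horizontal axis), with points at the limma estimate and bars for its 95% interval. Slc30a5 lies below 0 at -0.81 and Slc30a4, Slc30a7 and Slc30a9 lie above 0 by their brightest probe sets, while grey marks the 8 probe sets that did not pass.

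Slc30a9 was higher in RS cells by its brightest probe set. Its product is a zinc transporter of mitochondria that was first described as a coactivator of nuclear receptors. By probe set 1388982_at the signal was 406, 437 and 461 (lowest, median and highest) on the RR arrays and 561, 590 and 636 on the RS arrays. The lines did not overlap. The means were 437 ± 22.3 (SD, n = 6) and 593 ± 25.7 (SD, n = 6), a ratio of 1.36. The log2 fold change was 0.42 (standard error 0.05, 95% interval 0.30 to 0.53, adjusted p = 4.24e-05, limma).

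The other probe sets of Slc30a9 were dimmer and did not pass. By 1395340_at the RR arrays had signals of 41.6 to 65.1, with a median of 51.1. On the RS arrays 5 of 6 lay above every RR array, at 96.8 to 112, and replicate 2 lay below every RR array at 30.6. Over all arrays the difference was 0.62 on the log2 scale (standard error 0.23, adjusted p = 0.0612, limma). Without that RS array it was 0.86 (standard error 0.10, adjusted p = 5.21e-05), so the call depended on that array. It depended on the processing as well: with the array kept, the probe set passed with a pseudocount of 64 (0.41, adjusted p = 0.0378) and under some other settings. By 1388982_at that array had 561, the lowest of the RS signals but above every RR array. By the third probe set, 1375514_at, it had 5.43, inside the range of its line. The probe set 1375514_at was dim on all arrays, at 3.22 to 18.8 on the RR arrays and 3.38 to 18.9 on the RS arrays, a difference of -0.12 on the log2 scale (adjusted p = 0.637). RefSeq also lists a pseudogene, Slc30a9-ps1, on chromosome X, and whether it shares sequence with these probes was not tested.

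**Figure D3:**
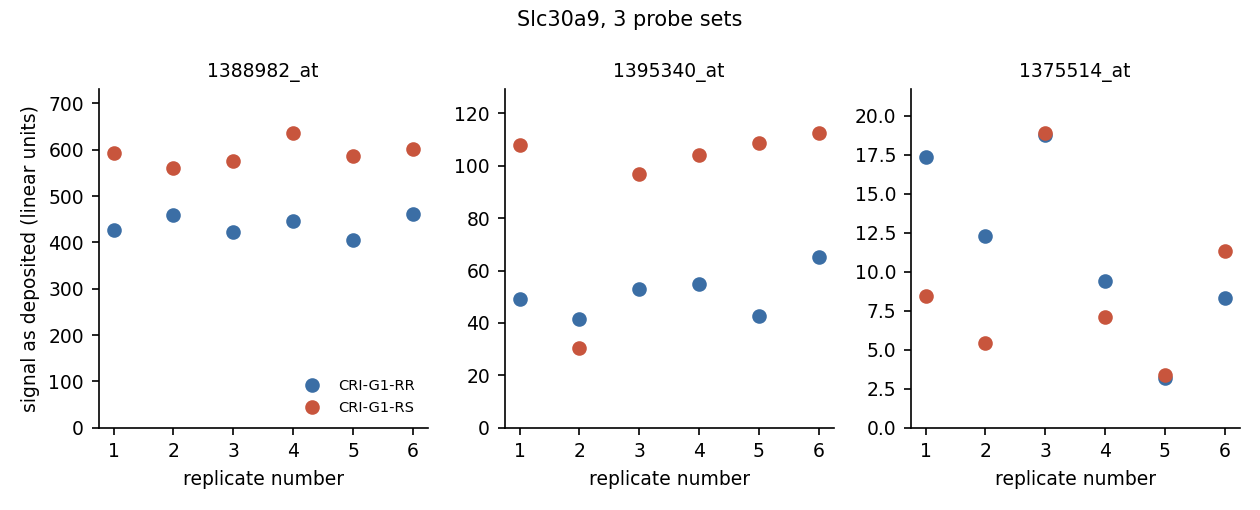
Signal (vertical axes, linear units from 0) of the 3 Slc30a9 probe sets by replicate number (horizontal axes), with CRI-G1-RR in blue and CRI-G1-RS in red. The lines separate by 1388982_at, replicate 2 of CRI-G1-RS falls to 30.6 by 1395340_at, and 1375514_at is under 20 on every array, since its highest signal is 18.9.

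Slc30a4 had the least of the changes that passed. It encodes a transporter of endosomes and the trans-Golgi, and its loss in the lethal milk mouse leaves the milk short of zinc. Its signal by 1370357_at was 430, 509 and 617 (lowest, median and highest) on the RR arrays and 554, 647 and 688 on the RS arrays. The lines overlapped, with 4 of 6 RS arrays above every RR array. The mean went from 510 ± 71.1 (SD, n = 6) to 633 ± 53.4 (SD, n = 6), a ratio of 1.24. On the log2 scale the change was 0.30 (standard error 0.09, 95% interval 0.11 to 0.49, adjusted p = 0.018, limma), and the exact permutation p was 0.0108, unadjusted. The call was lost when arrays were centred on their medians (log2 fold change 0.29, adjusted p = 0.0646) and without the RR arrays 1 to 3 (0.30, adjusted p = 0.079). The second probe set, 1378230_at, was dim, at 2.88 to 20.7 on the RR arrays and 2.64 to 19.4 on the RS arrays, with a log2 fold change of -0.25 (95% interval -0.71 to 0.21, adjusted p = 0.435).

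Slc30a3 was well above the dim range in both lines and did not pass. It encodes the transporter that fills the synaptic vesicles of glutamatergic neurons with zinc. Its signal was 260, 309 and 381 (lowest, median and highest) on the RR arrays and 292, 377 and 451 on the RS arrays. RS arrays lay above every RR array in 3 of 6 cases. The log2 fold change was 0.18 (standard error 0.12, adjusted p = 0.3, limma), and its 95% interval of -0.08 to 0.43 leaves room for a rise as large as that of Slc30a9.

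Slc30a1 and Slc30a2 were dim in both lines. Slc30a1, the exporter of the plasma membrane, had signals of 26.4, 36.4 and 42.4 (lowest, median and highest) on the RR arrays and 33.8, 44.1 and 49.3 on the RS arrays. RS arrays tended to lie higher, 4 of 6 above every RR array, but the log2 fold change of 0.21 did not pass (95% interval 0.0050 to 0.42, adjusted p = 0.117, unadjusted p = 0.0454, limma). Slc30a2, a vesicle transporter known for secreting zinc into milk, had signals of 27.4, 34.3 and 41.9 on the RR arrays and 14.4, 26.8 and 37.3 on the RS arrays by 1398264_at. Here 3 of 6 RS arrays lay below every RR array, and the log2 fold change was -0.28 (95% interval -0.59 to 0.03, adjusted p = 0.172). Its other probe set, 1378896_at, spread over 14.4 to 38.7 on the RR arrays and 5.14 to 40.9 on the RS arrays (log2 fold change -0.02, adjusted p = 0.957). At signals this low the pseudocount of 16 understates a change.

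Neighbouring genes were examined to see each member beside the genes around it. For each member the 50 nearest genes of mean signal 100 or more, in the gene order of GRCr8, were taken. Those around Slc30a9, on chromosome 14, stood at a median of 0.32 on the log2 scale, and 29 of the 50 were higher in RS cells while 5 were lower. Of them 19 had a larger value than Slc30a9 itself. Around Slc30a7, on chromosome 2, the median was 0.25 with 27 of 50 higher and 8 lower, and 8 neighbours exceeded Slc30a7. Around Slc30a5, which is on chromosome 2 as well, the median was -0.19 with 24 of 50 lower and 6 higher, and 3 neighbours were lower than Slc30a5. Slc30a4, on chromosome 3, went the other way from its neighbours, which had a median of -0.19 with 27 of 50 lower and 7 higher, and only 3 had a larger value than Slc30a4. The remaining members had neighbour medians of 0.01 to 0.15, and those of Slc30a3 and Slc30a6 share genes because both lie on chromosome 6. Over all 8684 genes with such a signal the median was 0.03, and 28.6% were higher and 25.2% lower.

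**Figure D4:**
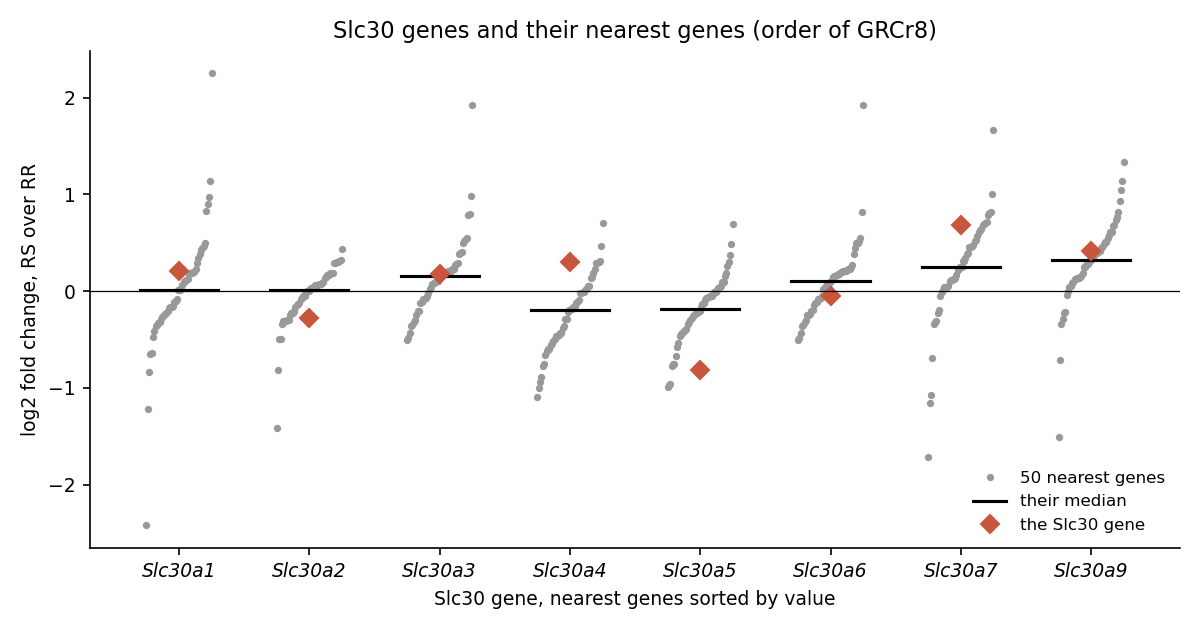
Log2 fold change of CRI-G1-RS over CRI-G1-RR cells (vertical axis) for each Slc30 gene (red diamond) and its 50 nearest genes of mean signal of at least 100 (grey points, sorted by value), with a line at the median of the neighbours (horizontal axis, Slc30 gene). Slc30a9 at 0.42 lies near its neighbours' median of 0.32, and Slc30a5 at -0.81 lies below all but 3 of its neighbours.

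The genes whose normalized values were most like those of Slc30a5 over the 12 arrays were Cald1, Klf5 and Ldb3, with Pearson r of 0.99 each. The search covered 8657 of the genes of mean signal 100 or more. Cald1 encodes the actin-binding protein caldesmon, Klf5 a transcription factor of epithelial cells and Ldb3 a protein of the muscle Z-disc. The 12 arrays fall into the 2 lines, so this likeness is mostly the shared difference between the lines. Within the 6 RS arrays r was 0.85, 0.82 and 0.77, and within the 6 RR arrays it was -0.21, 0.28 and 0.30.

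Of the Slc39 importers, 12 of 14 were measured, and 4 were higher and 2 lower in RS cells, with a median log2 fold change of -0.0045. The share that passed, 6 of 12, stands beside 39.2% of all genes (21.0% higher, 18.3% lower). Slc39a8, a plasma membrane importer of zinc and manganese, had signals of 351, 434 and 540 (lowest, median and highest) on the RR arrays and 678, 722 and 746 on the RS arrays. The lines did not overlap, and the log2 fold change was 0.70 (standard error 0.10, adjusted p = 1.49e-04, limma). Slc39a14, which also carries iron, had signals of 236, 256 and 283 on the RR arrays and 345, 365 and 386 on the RS arrays, again without overlap, and a change of 0.49 on the log2 scale (adjusted p = 2.32e-05). Its dimmer probe set 1382919_at had a log2 fold change of 0.36 and did not pass (adjusted p = 0.207). Slc39a2 and Slc39a5 passed as higher at dim signals, Slc39a2 by 0.58 on the log2 scale (adjusted p = 0.0493) and Slc39a5 by 0.51 (adjusted p = 0.0194), and they are not in the count when probe sets with a mean signal under 50 are left out. Slc39a11 fell from 803 ± 54.9 (SD, n = 6) to 601 ± 52.3 (SD, n = 6), a difference of -0.42 on the log2 scale (adjusted p = 4.40e-04). Slc39a6 fell as well by its brightest probe set, a difference of -0.25 on the log2 scale (adjusted p = 0.00166), while its other probe sets had -0.09 and -0.02 and did not pass. Slc39a7, which releases zinc from the endoplasmic reticulum and Golgi, differed by -0.01 on the log2 scale (adjusted p = 0.932).

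Among the metallothioneins and Mtf1, 5 of 7 listed genes were measured and 1 passed, beside 39.2% of all genes. Mt3, the metallothionein of neurons, had signals of 53.1, 72.3 and 107 (lowest, median and highest) on the RR arrays and 147, 157 and 184 on the RS arrays. The lines did not overlap, and the log2 fold change was 0.94 (standard error 0.12, adjusted p = 4.49e-05, limma). Mt1 was dim, with means of 4.25 ± 0.936 (SD, n = 6) for RR and 9.13 ± 7.57 (SD, n = 6) for RS cells (adjusted p = 0.265). Mt2A varied within both lines, from 9.82 to 86.7 on the RR arrays and 10.8 to 111 on the RS arrays (adjusted p = 0.434). Mtf1, the zinc-sensing transcription factor of metallothioneins and Slc30a1, had a log2 fold change of 0.05 by its brightest probe set (adjusted p = 0.734), -0.14 by 1390574_at (adjusted p = 0.186) and 0.52 by the dimmer 1393372_at (adjusted p = 0.0259), so its probe sets disagree.

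Of 5 ectoenzymes that take up zinc in the secretory pathway, 1 was higher and 3 were lower in RS cells. Of all genes 39.2% passed, 21.0% as higher and 18.3% as lower. This list, like the others, was chosen with earlier results of these data known. Enpp1, a pyrophosphatase of the cell surface, had signals of 2112, 2369 and 2609 (lowest, median and highest) on the RR arrays and 907, 1031 and 1151 on the RS arrays. The log2 fold change was -1.17 (standard error 0.07, adjusted p = 1.02e-07, limma). Nt5e, the ecto-nucleotidase that makes adenosine, had signals of 264, 347 and 382 on the RR arrays and 131, 147 and 162 on the RS arrays, and a change of -1.11 on the log2 scale (adjusted p = 1.41e-06). Both genes separated the lines without overlap. Enpp3 was higher, its mean going from 77.6 ± 16.7 (SD, n = 6) to 118 ± 19.8 (SD, n = 6), a difference of 0.51 on the log2 scale (adjusted p = 0.00844). The alkaline phosphatase gene Alpi passed as lower at signals of 10.6 ± 3.73 (SD, n = 6) and 5.70 ± 0.811 (SD, n = 6), in the dim range. The count of lower ectoenzymes was 2 with the low-signal filter at 50, with a pseudocount of 64 and without RR arrays 1 to 3. Alpl, dim as well, did not pass (adjusted p = 0.154).

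**Figure D5:**
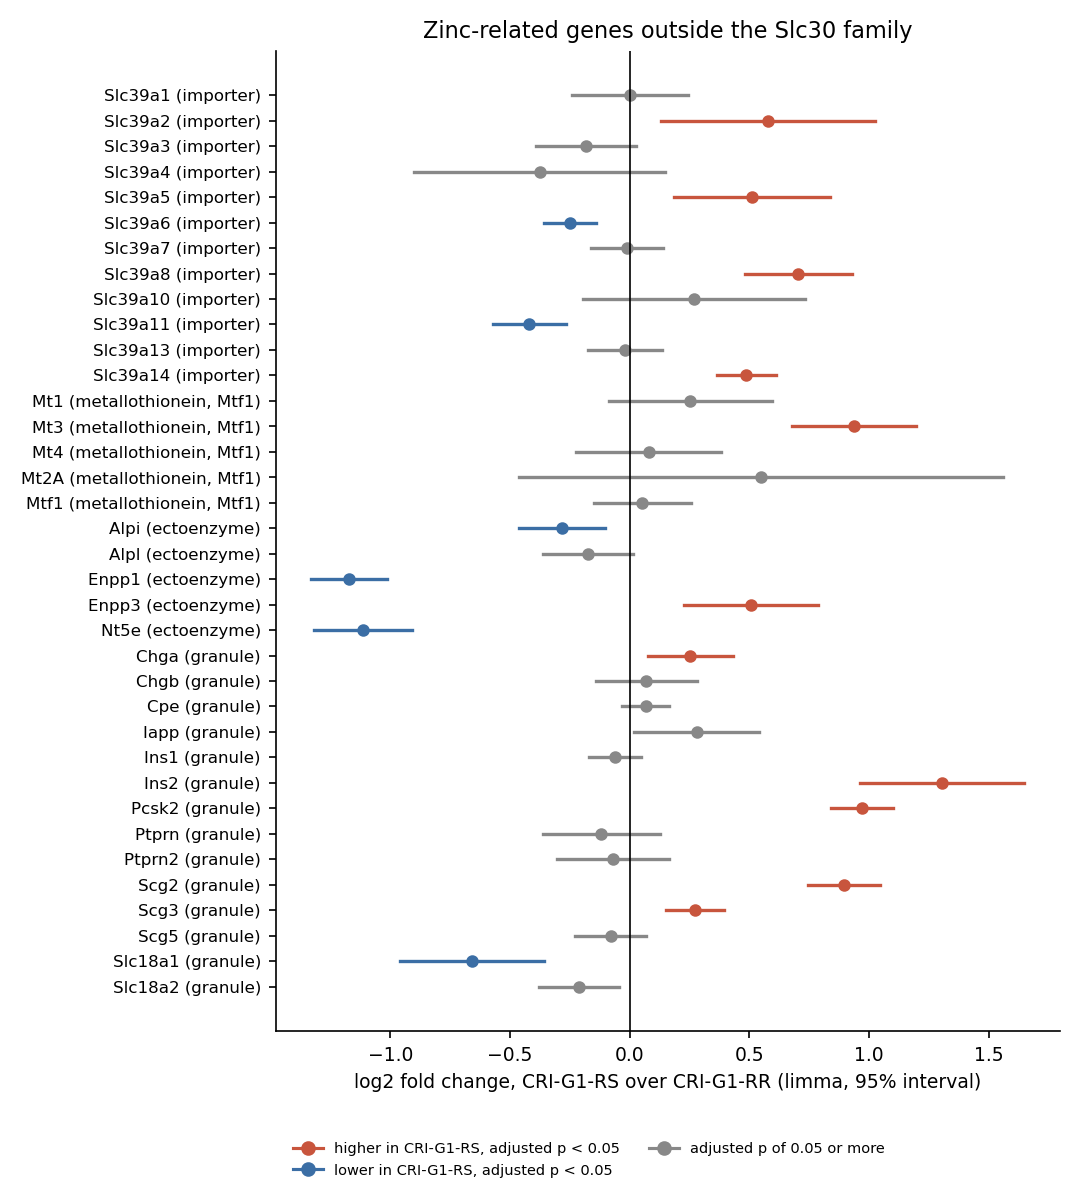
Log2 fold change of CRI-G1-RS over CRI-G1-RR cells (horizontal axis; points at the limma estimate, bars for its 95% interval) for zinc importers, metallothioneins and Mtf1, zinc-dependent ectoenzymes and granule genes. Enpp1 at -1.17 and Nt5e at -1.11 are the lowest shown and Ins2 at 1.30 the highest.

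In the insulin granule list, 14 of 15 genes were measured, with 5 higher and 1 lower in RS cells and a median log2 fold change of 0.07. These 6 of 14 are near the 39.2% of all genes that passed. Ins2, 1 of the insulin genes, had signals of 541, 675 and 1041 (lowest, median and highest) on the RR arrays. On the RS arrays they were 1518, 1834 and 1909, a difference of 1.30 on the log2 scale (adjusted p = 2.97e-05, limma). By quantitative RT-PCR on other samples, the paper could not detect Ins2 mRNA in RR cells. Ins1, the other insulin gene, did not pass: its mean was 7118 ± 309 (SD, n = 6) in RR and 6495 ± 978 (SD, n = 6) in RS cells, with 5 of 6 RS arrays below every RR array before normalization (log2 fold change -0.06, adjusted p = 0.408). The paper, by its own array processing, reported the same Ins1 probe set as higher in RS cells. It also reported Ins1 as higher in RS cells by quantitative RT-PCR on other samples. The reason for this disagreement was not tested. Scg2, a granule protein of the granin family, was higher by 0.89 on the log2 scale (adjusted p = 6.61e-07), and its relatives Scg3 and Chga by 0.27 (adjusted p = 0.00186) and 0.25 (adjusted p = 0.0307). Pcsk2, the gene of a prohormone convertase, had signals of 1034, 1071 and 1186 on the RR arrays and 1959, 2081 and 2370 on the RS arrays, without overlap, and was higher by 0.97 (adjusted p = 9.17e-08). Slc18a1, a monoamine transporter of granules, fell from 728 ± 161 (SD, n = 6) to 452 ± 60.2 (SD, n = 6), a difference of -0.66 on the log2 scale (adjusted p = 0.00246). The zinc-dependent carboxypeptidase gene Cpe had signals of 5284, 5707 and 6031 (lowest, median and highest) on the RR arrays and 5233, 5457 and 6364 on the RS arrays (adjusted p = 0.309). Its direction depended on the scaling, since the log2 fold change after normalization was 0.07 while the mean signal was 5668 in RR and 5615 in RS cells.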

How the data were processed

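Each of the 12 arrays held RNA of 1 sample, 6 per line. The authors deposited linear signal intensities, for which GCOS 1.4 stands in the submitters' processing notes. Trimmed means of 250.068 to 250.075 show a common scaling. The Methods describe robust multi-chip averaging, and these values are not on that scale.

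Signals were quantile normalized, put on a log2(signal + 16) scale and tested in limma (version 3.58.1 under R 4.3.3) on cell type alone. Adjustment was by the Benjamini-Hochberg method over 31099 probe sets, with no filter on low signal. A fold change is on the log2(signal + 16) scale and is positive where CRI-G1-RS is higher, and means, SDs and ratios are of the signals before quantile normalization. Precision is limited by the number of arrays. The p-values measure the spread between passages of 2 clones. Gene symbols are those of GEO's platform table (1 symbol for 20832 probe sets), gene order and promoters from RefSeq on GRCr8.

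The members and gene lists were chosen with earlier results of these data known. All Slc30 probe sets were named, and list genes starting from the largest change. Slc39a7, Mtf1, Mt1, Mt2A, Alpl, Cpe and Ins1, which did not pass, were named for their role. A likeness to Slc30a8 had been planned and could not be computed. The alternatives were another scaling or centring, pseudocounts of 1 and 64, a low-signal filter at 50, array weights, an intensity trend, a block on replicate number, dropping cross-hybridising probe sets and dropping each array. Leaving out RR arrays 1 to 3 or 4 to 6 was added after seeing the data.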

Additional observations from a re-analysis of the deposited data

Results flagged for a closer look

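In 24 sets of 6 arrays (12 Slc30 probe sets in 2 lines), 2 arrays lay apart from the others of their line by Dixon's test, and chance gives about 1 in 20 sets. Replicate 2 of CRI-G1-RS had a signal of 30.6 for the Slc30a9 probe set 1395340_at, where the nearest other array of its line had 96.8. Replicate 4 of CRI-G1-RR had a signal of 942 for Slc30a5, where the nearest other array of its line had 988. Slc30a5 kept a log2 fold change of -0.84 to -0.78 without any 1 of the arrays.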

How the results depend on the processing

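Slc30a5, Slc30a7 and Slc30a9 (1388982_at) kept their direction and passed in all 23 alternatives, with log2 fold changes of -0.84 to -0.76, 0.50 to 0.87 and 0.38 to 0.43. Slc30a4 passed in 21 of 23; the exceptions were centring on the median (0.29, adjusted p = 0.0646) and leaving out RR arrays 1 to 3 (0.30, adjusted p = 0.079). Slc30a1, Slc30a2, Slc30a3 and Slc30a6 passed in none of those that gave a value (the low-signal filter left out Slc30a1 and Slc30a2). Slc30a9 by 1395340_at passed in 7 of 23, among them without replicate 2 of CRI-G1-RS (0.86, adjusted p = 5.21e-05). Dim probe sets turned sign: Slc30a2 1378896_at between -0.13 and 0.15 when single arrays were left out and 0.081 without RR arrays 4 to 6, and Slc30a9 1375514_at to 0.075 without RR arrays 1 to 3.

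Of the list counts, importers higher in RS cells went from 4 to 2 with the low-signal filter and without RR arrays 1 to 3, and to 3 in 14 other alternatives. Importers lower went from 2 to 3 with array weights and without replicate 2 of CRI-G1-RS. Granule genes higher went from 5 to 3 with centring on the median and were 4 to 6 otherwise. Granule genes lower went from 1 to 2 with array weights, the low-signal filter, a pseudocount of 64 and without RR arrays 1 to 3, and were 1 to 2 when single arrays were left out (2 without replicate 3 of CRI-G1-RR or replicate 6 of CRI-G1-RS). Ectoenzymes higher went from 1 to 0 without RR arrays 4 to 6, and lower from 3 to 2 with the low-signal filter, a pseudocount of 64 and without RR arrays 1 to 3. The cause was not tested.

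The labels state that passages were collected in pairs but not that the number marks the pair. Deviations of same-numbered samples correlated at -0.06 to 0.08, with 0 of 6 pairs over 0.1 and 3 of 12 samples correlating best with their own number, so the numbers were not taken as pairs. With the replicate number as a block, 3 Slc30 genes were higher and 1 lower, as without it, and 1 of 12 probe sets changed its call, Slc30a9 1395340_at (0.62, adjusted p = 0.036). Dim signals limit Slc30a1, Slc30a2 and the second probe set of Slc30a4.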

Other observations

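Slc30a10, a manganese exporter of the same family that is outside the genes described above, was dim, with signals of 6.76, 25.9 and 31.4 (lowest, median and highest) on the CRI-G1-RR arrays and 24.6, 28.3 and 48.0 on the CRI-G1-RS arrays (log2 fold change 0.33, 95% interval -0.03 to 0.70, adjusted p = 0.165, limma).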
